A study of Mus musculus with 112 samples.

Results

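Collagens are the triple-helical proteins of the extracellular matrix. Fibrillar types build the ropes of the dermis, network-forming types build the sheet of the basement membrane under the epidermis, and other types sit on fibrils, form microfilaments or span the cell membrane. In skin most fibrillar collagen is made by dermal fibroblasts, whereas type XVII is made by basal keratinocytes as part of the hemidesmosome, the rivet that holds epidermis to basement membrane. The collagen genes were taken as every gene whose array annotation symbol has the form of a collagen chain (Col, a type number, a and a chain number), on probe sets with 1 symbol and with the highest-mean set where a gene had several. This gave 42 of the 18772 genes measured. They fell into 11 fibrillar genes, 9 genes of the basement membrane and its anchorage and 22 of other types, the last made up of 8 fibril-associated (FACIT), 6 microfibrillar, 3 short-chain, 3 transmembrane and 2 unclassed genes. Col7a1, the anchoring fibril chain, and Col9a3 were measured only on probe sets shared with another symbol and were not used.

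The 112 arrays came from 15 male mice of a backcross in which F1 hybrids of Mus spretus and FVB were crossed to FVB, 6 of them HrasKO and 9 wild type (WT). All mice, the skin donors included, received 25 mg of the carcinogen DMBA once at 8 weeks of age and then 200 µL of the tumour promoter TPA 2 times a week, and carcinomas were removed once they were over 1 cm. The groups were papillomas, which are benign tumours (27 arrays, 13 mice), squamous cell carcinomas (SCC; 10 arrays, 8 mice, all WT), spindle carcinomas, in which epithelial cells have taken an elongated shape (12 arrays, 10 mice), metastases labelled SCC (24 arrays, 11 mice) or spindle (20 arrays, 7 mice), and dorsal skin of the same mice (15 arrays, 15 mice). Carcinomas and metastases of mixed histology (3 arrays and 1 array) entered no comparison. The values are log2 intensities, and the mouse was the replicate. The skin is therefore not untreated skin, and every genotype comparison is between mice of a cross that segregates at many loci besides Hras. Hras itself was not analysed here, so the genotype labels were not checked against it.

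Some arrays went against their labels. Each array was correlated across genes with arrays of other mice, where the spindle and SCC sets each held carcinomas and metastases. By this measure, 5 papilloma arrays of 4 mice were closer to another tissue than to the other papillomas (4 to spindle tumours, 1 to skin). Of the spindle carcinoma arrays 1 was closest to papillomas, and 6 of the 24 metastases labelled SCC were closest to spindle tumours. All 10 SCC carcinoma arrays were closest to papillomas. Fits were repeated without the 5 papilloma arrays that stand apart, and without the 1 spindle carcinoma array. Calls of named collagens that changed are given beside the result. No fit was planned to leave out the 6 metastases labelled SCC that were closest to spindle tumours. They came from mice 1616, 1664, 1706 and 1949, of which only mouse 1949 had an SCC carcinoma. In the comparison with SCC carcinomas of the same mice, the fit without mouse 1949 therefore left out the 1 such array it held. Over all arrays the median intensity was 6.12, and 28 collagen genes exceeded it in at least 8 arrays, whereas 8 (among them Col13a1, Col4a3, Col4a4, Col9a1 and Col19a1) exceeded it in none. In these pieces of whole tissue, fewer cells of a type and less RNA per cell cannot be told apart.

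Promoter windows of 300 bases (250 before and 50 after the annotated start) were listed by RefSeq (GRCm38.p6) for 34 of the 42 genes. The windows below are shown because of what follows: Col4a1 and Col4a2, the 2 chains of the ubiquitous type IV network, are transcribed away from each other and varied together over papillomas, Col17a1 had the largest falls, Col8a1 was among the largest rises over skin, and Col1a2 of the main dermal collagen was not called in any comparison of tumours with skin. In the first 2, capitals mark the 78 bases (chr8:11312777-11312854) that both windows share, read from opposite strands. In the other 3, capitals mark the motif CCAAT, the motif GGGCGG and the motif TATAAA on either strand.
Col4a1, chr8:11312777-11313076, minus strand: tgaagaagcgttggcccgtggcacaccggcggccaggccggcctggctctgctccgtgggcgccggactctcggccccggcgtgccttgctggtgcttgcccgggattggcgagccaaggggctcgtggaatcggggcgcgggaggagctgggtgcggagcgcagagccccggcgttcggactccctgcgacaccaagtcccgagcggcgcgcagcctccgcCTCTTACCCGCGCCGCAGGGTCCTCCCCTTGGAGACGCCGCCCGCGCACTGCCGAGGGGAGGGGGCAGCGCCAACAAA
Col4a2, chr8:11312555-11312854, plus strand: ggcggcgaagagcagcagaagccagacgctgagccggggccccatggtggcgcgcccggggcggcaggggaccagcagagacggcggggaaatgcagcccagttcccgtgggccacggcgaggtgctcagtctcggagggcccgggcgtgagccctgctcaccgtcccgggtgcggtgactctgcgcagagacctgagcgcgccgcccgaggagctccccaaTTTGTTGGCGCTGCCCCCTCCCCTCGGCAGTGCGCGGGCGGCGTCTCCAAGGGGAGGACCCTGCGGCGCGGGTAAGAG
Col17a1, chr19:47691993-47692292, minus strand: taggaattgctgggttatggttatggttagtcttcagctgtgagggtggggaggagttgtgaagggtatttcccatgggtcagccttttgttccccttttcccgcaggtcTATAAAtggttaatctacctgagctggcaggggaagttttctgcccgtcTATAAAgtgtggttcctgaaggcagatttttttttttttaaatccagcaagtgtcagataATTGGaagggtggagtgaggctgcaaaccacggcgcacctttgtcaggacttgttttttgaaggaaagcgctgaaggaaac
Col1a2, chr6:4505368-4505667, plus strand: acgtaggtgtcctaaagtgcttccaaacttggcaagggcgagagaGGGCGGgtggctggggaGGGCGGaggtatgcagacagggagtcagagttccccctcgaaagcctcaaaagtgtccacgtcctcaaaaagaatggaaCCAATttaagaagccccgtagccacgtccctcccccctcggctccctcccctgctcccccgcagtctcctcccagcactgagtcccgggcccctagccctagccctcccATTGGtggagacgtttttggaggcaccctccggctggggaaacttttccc
Col8a1, chr16:57754688-57754987, minus strand: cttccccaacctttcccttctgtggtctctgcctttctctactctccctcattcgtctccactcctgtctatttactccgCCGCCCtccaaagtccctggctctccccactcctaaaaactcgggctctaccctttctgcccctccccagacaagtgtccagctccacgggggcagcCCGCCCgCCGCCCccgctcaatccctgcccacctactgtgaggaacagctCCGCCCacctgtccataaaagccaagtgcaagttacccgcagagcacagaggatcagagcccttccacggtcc

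The motif GGGCGG, searched on both strands, was in 22 of the 37 collagen windows (59.5%; 3 genes had 2 windows), against 35.7% of all 32851 windows. CCAAT was in 12 of 37 (32.4%), against 37.4% of all windows, and TATAAA in 5 of 37 (13.5%), against 13.6%. TGANTCA, the core recognised by AP-1 factors, was in 1 of 37 (2.70%), against 7.81% of all windows. The Col17a1 window held 2 copies of TATAAA and 1 of CCAAT and no GGGCGG, whereas the Col8a1 window held 4 copies of GGGCGG and neither of the others. No 2 of the matches in these windows overlapped, and a match describes letters only.

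In papillomas the largest rises over the skin of the same mice were in Col12a1, Col8a1, Col18a1 and Col6a3, and the main fibril chains Col1a1, Col1a2 and Col3a1 were not called. Of the 42 genes, 16 rose and 2 fell (limma on mouse means, 13 mice, adjusted p under 0.05 over all genes), and over all genes 42.6% were called, 24.5% higher and 18.1% lower. The median log2 difference of the collagens was 0.23, against 0.05 over all genes. By class, 6 of 11 fibrillar genes rose and none fell, 2 of 9 basement membrane genes rose and 1 fell, and 8 of 22 others rose and 1 fell.

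The largest rise was that of Col12a1, a FACIT collagen that binds the surface of type I fibrils. Its log2 level over mice was 10.5 at the lowest, 11.2 at the median and 11.7 at the highest in papillomas, against 7.37, 9.14 and 11.2 in skin. It was higher in papilloma in 12 of 13 mice, by 1.93 ± 0.332 (SE; adjusted p = 0.000347), although the groups overlapped. Col8a1, a short-chain network collagen of vessels and remodelling tissue, ran from 7.37 over 9.31 to 10.3 in papillomas, against 6.06, 6.91 and 9.57 in skin. The rise of 1.75 ± 0.4 (adjusted p = 0.00284) was seen in 10 of 13 mice. Col18a1, a basement membrane collagen whose end fragment is endostatin, was higher in all 13 mice. Its papilloma levels were 8.64, 9.2 and 9.92 (lowest, median, highest) against 6.95, 7.53 and 8.67 in skin, a difference of 1.62 ± 0.166 (adjusted p = 6.12e-06), and only the lowest papilloma mouse and the highest skin mouse overlapped. Col6a3, the long chain of the type VI microfilament, rose by 1.23 ± 0.377 (adjusted p = 0.0166, higher in 10 of 13 mice). Col11a1, which nucleates thin fibrils and is best known in cartilage, rose by 0.90 ± 0.145 (adjusted p = 0.000217, 13 of 13 mice), with medians of 6.23 in papillomas and 5.27 in skin.

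For the chains of the main dermal fibrils, levels in both tissues were high and overlapped. Col1a1 averaged 11.8 ± 0.39 in papillomas and 11.7 ± 0.85 in skin (SD, 13 mice each) and was higher in papilloma in 7 of 13 mice (log2 difference 0.14 ± 0.253, adjusted p = 0.69). For Col1a2 the difference was -0.18 ± 0.266 (adjusted p = 0.613) and for Col3a1, the chain that mixes with type I in pliable tissue, -0.37 ± 0.372 (adjusted p = 0.456). None of these 3 passed the threshold. Type V chains, which limit fibril diameter, are a separate group. Col5a1 rose by 0.61 ± 0.218 (adjusted p = 0.0364) and Col5a3 by 0.55, while Col5a2 gave 0.56 ± 0.266 (adjusted p = 0.106). Without the papilloma arrays that stand apart, the Col5a1 difference was 0.43 (adjusted p = 0.0624). The 2 probe sets of Col5a1 did not follow each other over the arrays (r = 0.02), so its values rest on the brighter set.

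In the basement membrane class, Col4a2 rose by 0.45 ± 0.166 (adjusted p = 0.0401) and its partner Col4a1 gave 0.26 ± 0.148 (adjusted p = 0.177). The Col4a2 call was lost without the papilloma arrays that stand apart (0.41, adjusted p = 0.0505). Leaving out 1 mouse at a time ended the Col5a1 call for 7 of 13 mice (adjusted p up to 0.0758), the Col4a2 call for 8 (up to 0.0831) and the Col14a1 call for 6 (up to 0.0667). Col4a6, a chain of the epithelial type IV network, fell by 0.59 on the log2 scale (SE 0.114, adjusted p = 0.000838), and was lower in papilloma in all 13 mice. Its signal was low, above the median intensity of all arrays in 4 of the 112. Col17a1 averaged 9.8 ± 1.52 in papillomas and 9.99 ± 0.548 in skin (adjusted p = 0.732). The wide papilloma spread came from 3 arrays of mice 1815 and 1984 between 5.12 and 5.71, whereas the other 24 lay between 7.97 and 11. Without the papilloma arrays that stand apart the direction turned, and Col17a1 was called higher in papilloma by 0.42 (adjusted p = 0.0147). Col14a1, a FACIT collagen of the dermis, fell by 1.21 (SE 0.421, adjusted p = 0.0318). Its levels were wide in both tissues, with 5.32, 6.97 and 8.31 in papillomas, against 6.04, 8.31 and 10.4 in skin.

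Markers of other tissues moved with this step. All 8 skeletal muscle, 7 of 8 adipocyte, 7 of 8 hair follicle and 5 of 8 endothelial markers fell, with median log2 differences of -3.13, -3.22, -2.72 and -0.56, and 6 of 10 fibroblast markers other than collagens fell and none rose. The mean log2 level of the fibroblast markers was 7.65 to 9.59 over papilloma mice (median 8.92), against 8.64 to 10.2 over skin mice (median 9.70), and that of the muscle markers 4.87 to 8.35 (median 5.21), against 5.32 to 11.8 (median 9.78). Their part in the collagen differences was not tested.

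**Figure D1:**
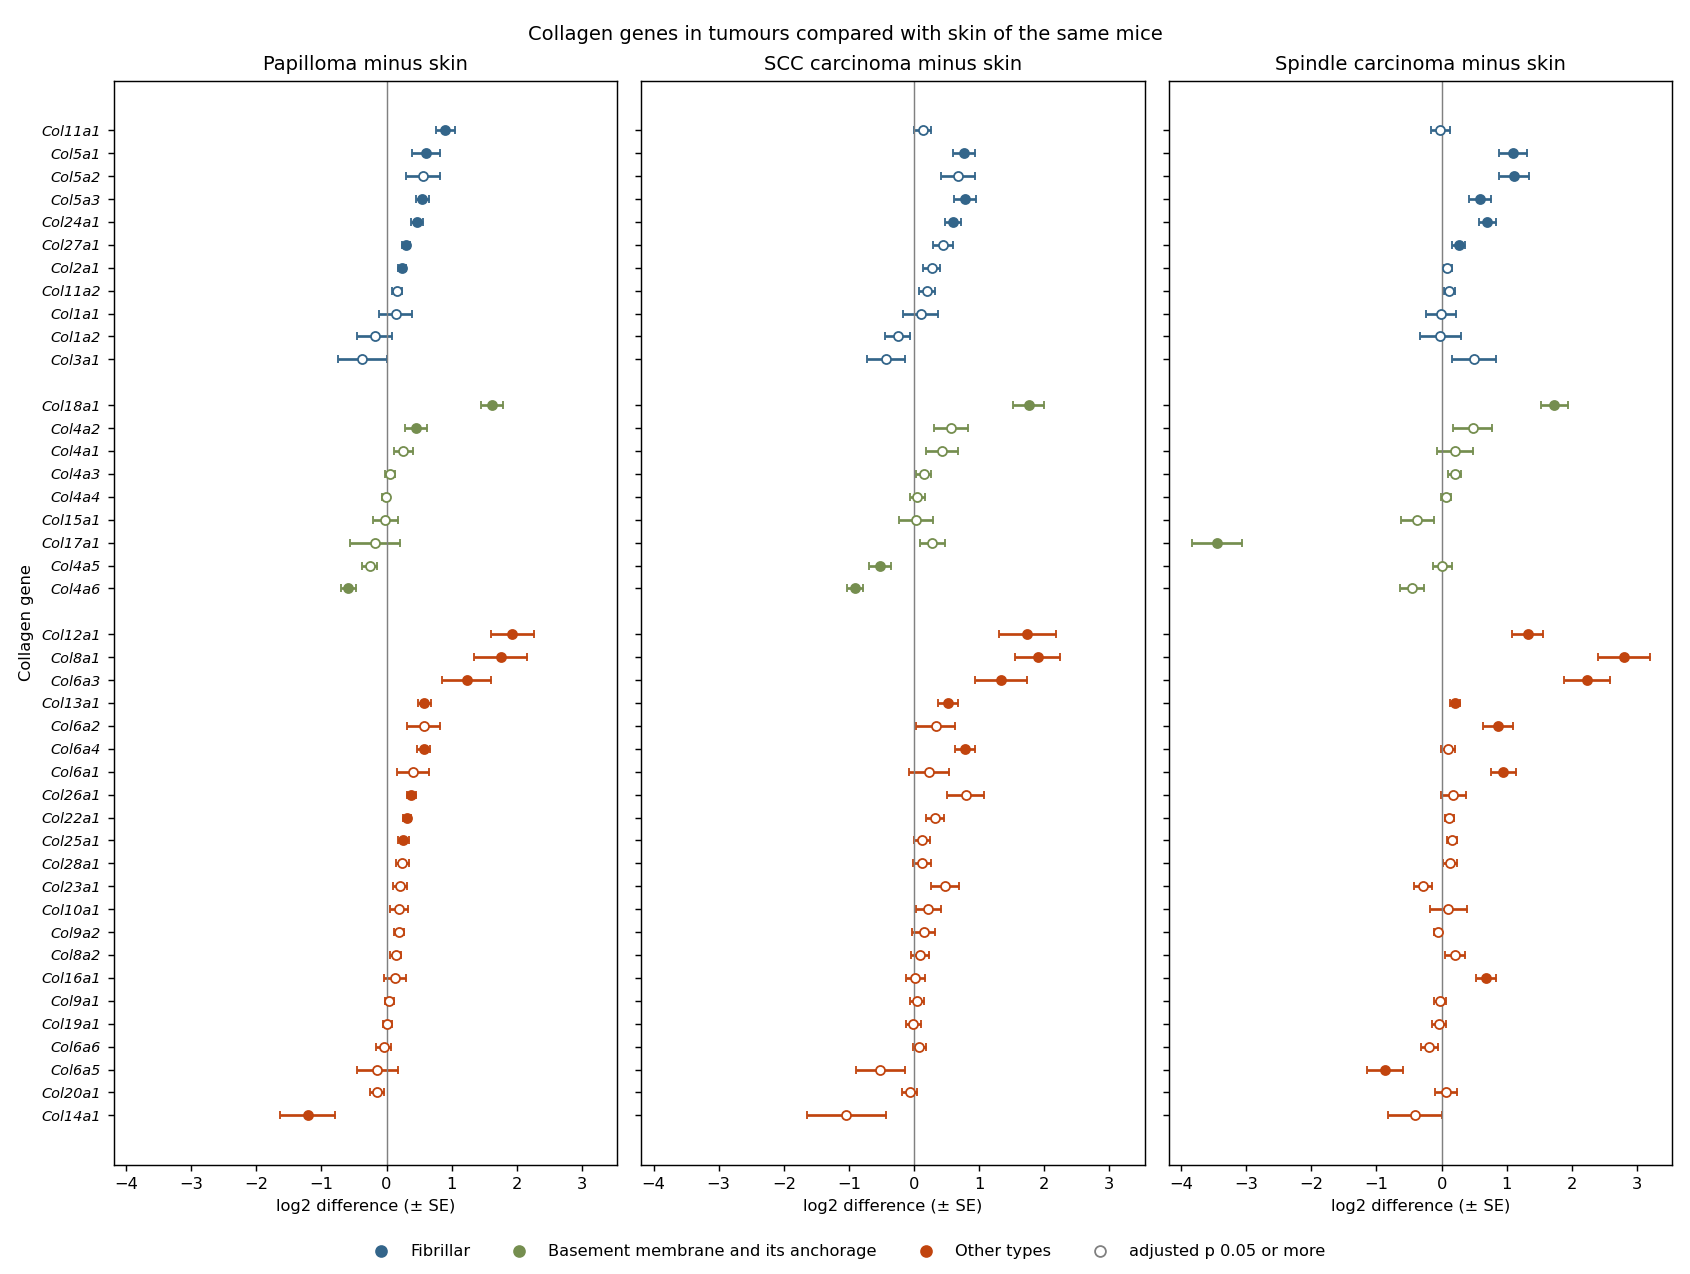
Log2 differences from the skin of the same mice (x axis, with SE) for all 42 collagen genes (y axis) in papillomas (13 mice), SCC carcinomas (8 mice) and spindle carcinomas (10 mice). Filled points passed the threshold. Col12a1, Col8a1, Col6a3 and Col18a1 stand to the right in all 3 panels, Col1a1, Col1a2 and Col3a1 are open points in all 3, and Col17a1 stands far to the left in spindle carcinomas.

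Between SCC carcinomas and the papillomas of the same 8 mice, no collagen gene was called by limma, and over all genes 0.202% were (0.0107% higher and 0.192% lower). At an unadjusted p under 0.05, 3 of the 42 were counted, against 1768 of 18772 genes. The largest of these was Col11a1 with -0.78 (adjusted p = 0.0999). It ran from 5.07 over 5.43 to 5.86 in SCC carcinomas, against 5.14, 6.23 and 7.02 in papillomas. Col1a1 gave -0.04 ± 0.22, Col3a1 0.02 ± 0.411 and Col4a1 -0.04 ± 0.191. Col17a1 averaged 10.5 ± 0.448 in SCC carcinomas and 10.1 ± 0.799 in papillomas (8 mice each, log2 difference 0.35 ± 0.29).

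Against skin, 9 collagens rose and 2 fell in SCC carcinomas, where 30.6% of all genes were called, 15.6% higher and 15% lower. The skin samples were shared with the papilloma comparison. Beside them, 7 of 8 adipocyte (the other rose), 6 of 8 skeletal muscle, 4 of 6 smooth muscle and pericyte and 2 of 10 fibroblast markers fell, and of 10 keratinocyte markers 3 rose and 3 fell; their part in the collagen differences was not tested. Col8a1 rose by 1.90 ± 0.348 (adjusted p = 0.00359, 8 of 8 mice), Col18a1 by 1.76 ± 0.24 (adjusted p = 0.000924, 8 of 8), Col12a1 by 1.74 ± 0.434 (adjusted p = 0.0146, 7 of 8) and Col6a3 by 1.34 ± 0.399 (adjusted p = 0.0304, 7 of 8). For Col18a1 the groups did not overlap, with 9.11 as the lowest SCC carcinoma mouse and 8.67 as the highest skin mouse. The fibrillar genes called were Col5a1 (0.77 ± 0.171, adjusted p = 0.00879), Col5a3 (0.78 ± 0.174, adjusted p = 0.0089) and Col24a1 (0.60). Col3a1 gave -0.43 ± 0.295 (adjusted p = 0.293), lower in SCC carcinoma in 7 of 8 mice, and was called without mouse 1383 (-0.70, adjusted p = 0.037). Both falls were in the X-linked pair of epithelial type IV chains. Their signal was low: Col4a6 exceeded the median intensity of all arrays in 4 of the 112 arrays and Col4a5 in 8. Col4a6 was 4.25, 4.59 and 4.97 (lowest, median, highest) in SCC carcinomas, below the skin of every one of the same 8 mice, and fell by 0.91 (SE 0.123, adjusted p = 0.000866). Col4a5 fell by 0.52 (SE 0.17, adjusted p = 0.0439). The Col6a3 call was lost on leaving out any of 6 mice (adjusted p up to 0.0717) and the Col4a5 call on leaving out any of 5 (up to 0.103).

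**Figure D2:**
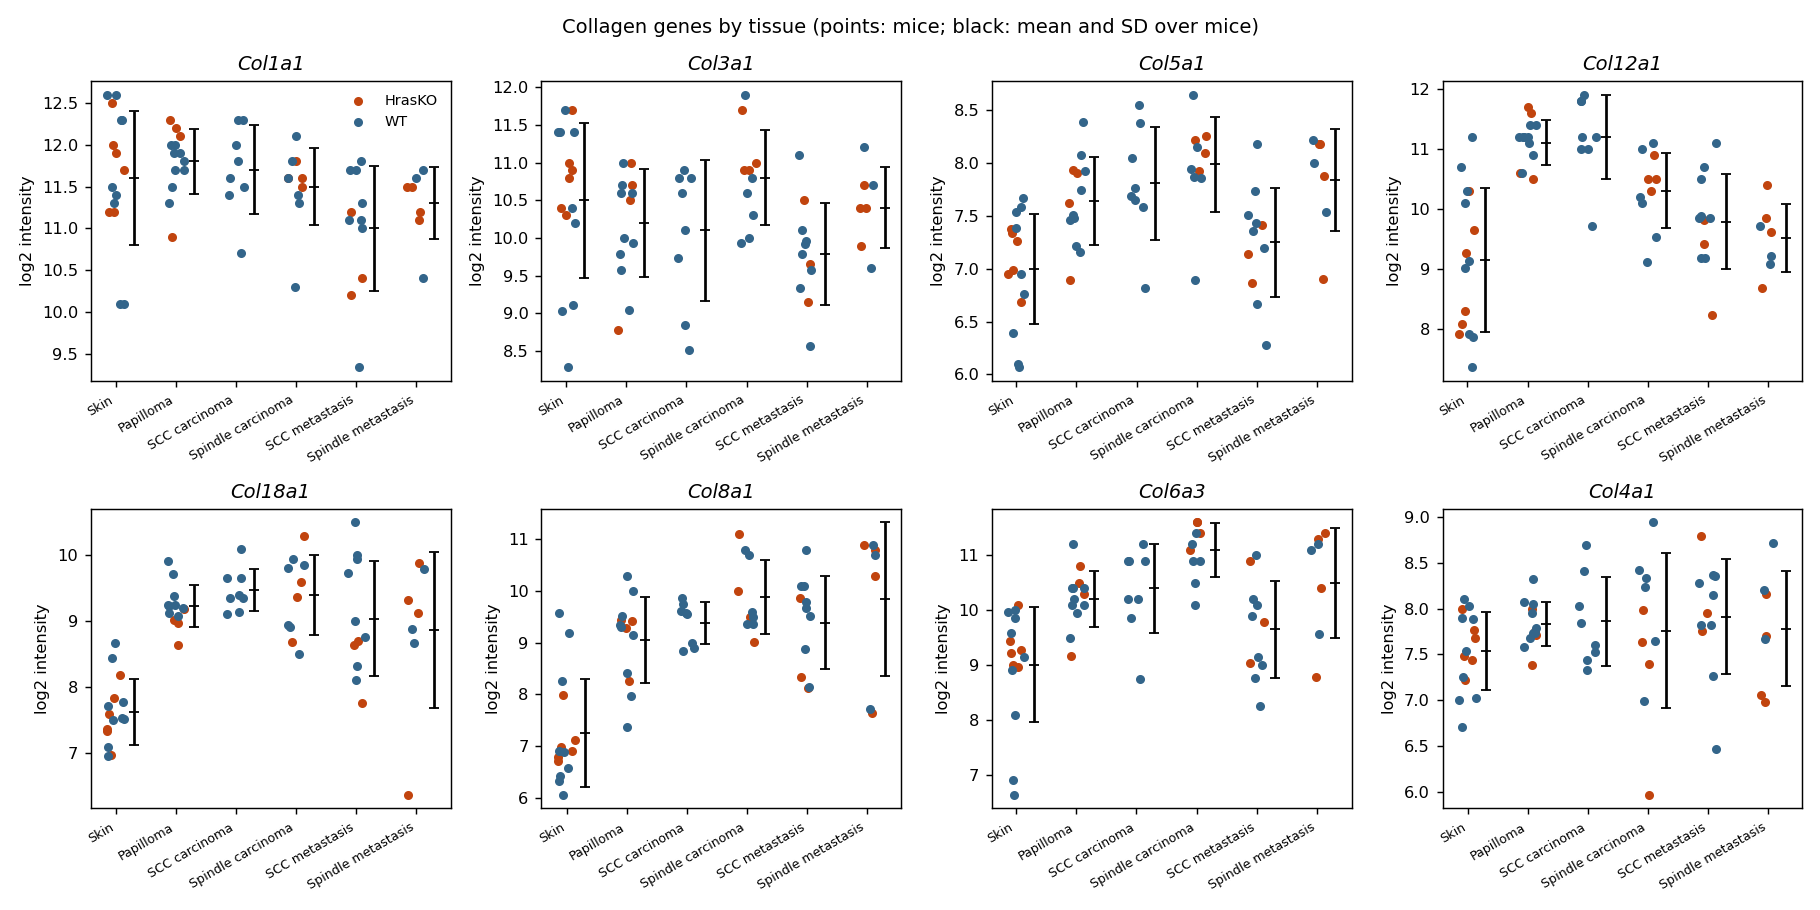
Log2 intensity (y axis) of 8 collagen genes per mouse (points, HrasKO and WT in different colours) across skin, papilloma, carcinoma and metastasis, with the mean and SD over mice in black. Col1a1 and Col3a1 overlap across all 6 groups. For the other genes shown the mean is lowest in skin, although single mice of other groups overlap skin. Each gene has its own axis.

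In spindle carcinomas Col17a1 had the largest fall and Col6a3 the only rise. Against the papillomas of the same 9 mice, 1 collagen rose and 5 fell, where 23.8% of all genes were called, 12.6% higher and 11.2% lower. After repeated quantile normalization, 2 rose and 4 fell, where that fit called 27.8% of all genes. The median of the 42 genes was -0.04, against 0.03 over all genes. By class, 1 of 9 basement membrane genes fell, 1 of 11 fibrillar genes fell, and 1 of 22 others rose and 3 fell.

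Col17a1 had the largest difference. Its log2 level over all mice of each group was 5.08 at the lowest, 6.25 at the median and 10.1 at the highest in spindle carcinomas, against 5.18, 10.3 and 11 in papillomas. Both extremes that made the groups overlap came from arrays that stood apart: the spindle carcinoma of mouse 1949 at 10.1 and the papillomas of mouse 1815 at 5.18. Col17a1 fell by 3.03 (SE 0.574, adjusted p = 0.00936), 8.16-fold lower, and was lower in spindle carcinoma in 8 of 9 mice. Of the keratinocyte markers, 9 of 10 fell and none rose, and their mean log2 level was 6.14 to 10.4 in spindle carcinomas (median 7.97), against 6.64 to 11.7 in papillomas (median 11.5). Their part in the fall of Col17a1 was not tested.

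Col6a5, a type VI chain, fell by 1.00 (SE 0.167, adjusted p = 0.00796), Col11a1 by 0.89 (SE 0.162, adjusted p = 0.00895) and Col12a1 by 0.78 (SE 0.239, adjusted p = 0.0409), each lower in all 9 mice. Col11a1 had levels of 4.9, 5.12 and 5.87 in spindle carcinomas, against 5.14, 6.23 and 7.02 in papillomas. Col23a1, a transmembrane collagen, fell by 0.44 (SE 0.139, adjusted p = 0.0454). Col6a3 rose by 0.77 ± 0.246 (adjusted p = 0.0468), with 10.1, 11.2 and 11.6 in spindle carcinomas, against 9.17, 10.3 and 11.2 in papillomas. None of the type I, III, IV or V anchors passed: Col1a1 gave -0.37 ± 0.176 (adjusted p = 0.16), Col3a1 0.48 ± 0.31 (adjusted p = 0.299) and Col4a1 -0.04 ± 0.252 (adjusted p = 0.929). Without the papilloma arrays that stand apart, 13 collagens were called (3 higher, 10 lower), where that fit called 36.8% of all genes, and these held all 6. With the spindle carcinomas titled RegCA left out, fewer mice remained, and no collagen was called. That fit called 0% of all genes, against 23.8% in the main fit, and the Col17a1 difference was -3.24 (adjusted p = 0.087). The calls of Col12a1, Col23a1 and Col6a3 were each lost on leaving out any of 7 of the 9 mice (adjusted p up to 0.0864, 0.11 and 0.0961), and those of Col17a1, Col6a5 and Col11a1 on leaving out none. Without the spindle carcinoma array closest to papillomas, Col23a1 gave -0.46 (adjusted p = 0.0509), and 8 collagens were called (2 higher, 6 lower), where that fit called 27.7% of all genes.

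Against skin, spindle carcinomas had 13 collagens higher and 2 lower over 10 mice, where 46.7% of all genes were called, 27.5% higher and 19.2% lower. Col8a1 ran from 9.01 over 9.54 to 11.1 in spindle carcinomas, against 6.06, 6.91 and 9.57 in skin, and rose by 2.80 ± 0.393 (adjusted p = 0.000179, 9 of 10 mice). Col6a3 rose by 2.23 ± 0.35 (adjusted p = 0.000365, 10 of 10), with its partners Col6a1 by 0.95 ± 0.186 (adjusted p = 0.00149) and Col6a2 by 0.87. Of the type V chains, Col5a1 rose by 1.10 ± 0.211 (adjusted p = 0.0013) and Col5a2 by 1.11 ± 0.227 (adjusted p = 0.00207). Col18a1 rose by 1.73 ± 0.205 (adjusted p = 6.4e-05, 10 of 10) and Col12a1 by 1.32 ± 0.241 (adjusted p = 0.000995). Col17a1 fell by 3.45 (SE 0.386, adjusted p = 4.53e-05, lower in all 10 mice) and Col6a5 by 0.87 (SE 0.279, adjusted p = 0.0243). The Col6a5 call was lost with the mean over its probe sets (-0.62, adjusted p = 0.0565), after repeated quantile normalization (-0.69, adjusted p = 0.0642), without mouse 1509 (-0.73, adjusted p = 0.0552) and without the carcinomas titled RegCA (-0.72, adjusted p = 0.148). Col1a1 gave -0.01 ± 0.235 (adjusted p = 0.988), Col1a2 -0.02 ± 0.316 (adjusted p = 0.961) and Col3a1 0.50 ± 0.335 (adjusted p = 0.249, higher in 8 of 10 mice). Without the spindle carcinoma array closest to papillomas, which is that of mouse 1949, Col3a1 was called higher by 0.75 (adjusted p = 0.0419). Beside these, 9 of 10 keratinocyte markers fell (median log2 difference -3.69), as did all 8 skeletal muscle, all 8 adipocyte and all 8 hair follicle markers. Of the fibroblast markers other than collagens, 6 of 10 fell and 1 rose, and all 7 macrophage markers rose. Their part in the collagen differences was not tested.

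Set directly against SCC carcinomas in WT mice (6 and 8 mice), spindle carcinomas had 2 collagens lower and none higher, where 7.56% of all genes were called, 3.47% higher and 4.09% lower. Col17a1 averaged 6.72 ± 1.82 in spindle and 10.5 ± 0.448 in SCC carcinomas and fell by 3.80 (SE 0.62, adjusted p = 0.0151), and Col23a1 averaged 6.17 ± 0.3 and 7.18 ± 0.645 and fell by 1.02 (SE 0.28, adjusted p = 0.0416). Of the keratinocyte markers, 7 of 10 were lower and none was higher (median log2 difference -2.84). Their part in the Col17a1 difference was not tested. The Col17a1 call was lost without mouse 1383, 1508 or 1984 (adjusted p = 0.0569, 0.0778 and 0.0854, log2 differences -3.90, -3.42 and -3.55). The Col23a1 call was lost on leaving out any of 8 mice (adjusted p up to 0.134). Without the spindle carcinoma array closest to papillomas, 6 collagens were called (1 higher, 5 lower), where that fit called 19.6% of all genes.

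**Figure D3:**
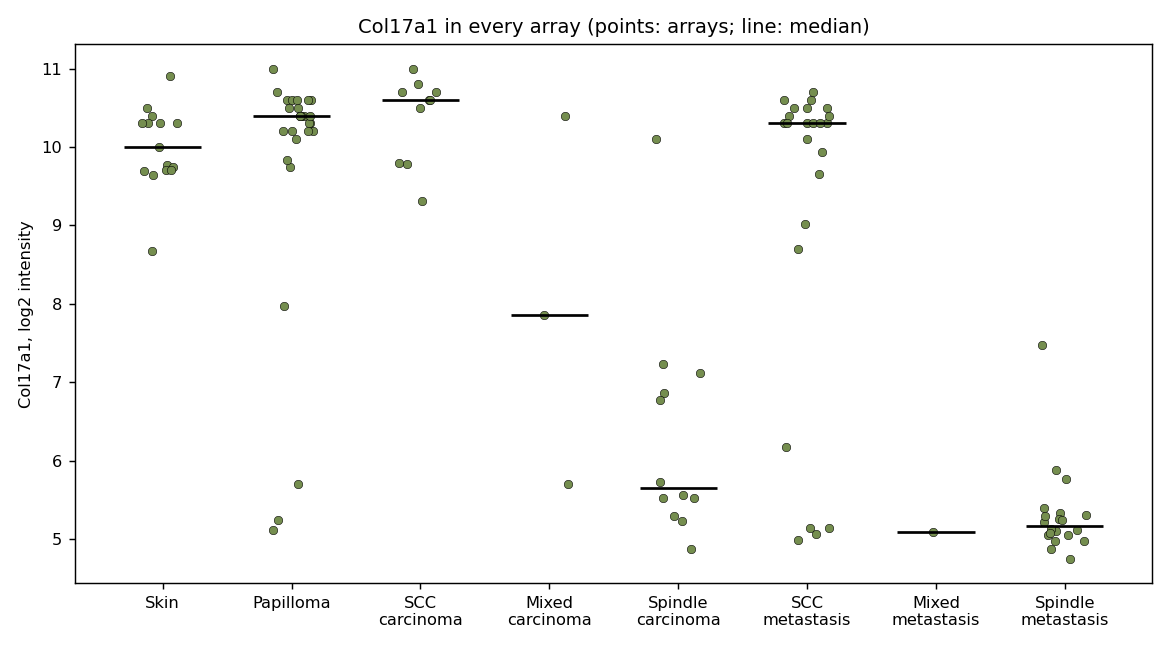
Col17a1 log2 intensity (y axis) in every array (points) by group, with the group median as a line. Skin and SCC carcinomas stay high, spindle tumours lie low except 1 spindle carcinoma array at 10.1, and the metastases labelled SCC fall into 5 arrays from 4.99 to 6.18 and 19 arrays from 8.70 to 10.7.

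Genes for the enzymes that modify and process collagen were called in both directions. Of 27 measured genes for collagen modification, export and cross-linking, 14 rose and 1 fell in spindle carcinomas against papillomas (median log2 difference 0.47), where 12.6% of all genes rose and 11.2% fell. Against skin, 18 rose and 4 fell (median 1.00), where 27.5% and 19.2% of all genes did. Plod2, which hydroxylates the telopeptide lysines used in cross-links, rose by 1.41 ± 0.338 against papillomas (adjusted p = 0.0182) and by 3.47 ± 0.232 against skin (adjusted p = 2.55e-06), and its levels did not overlap those of skin. Adamts14, a procollagen N-proteinase, rose by 2.17 ± 0.434 against papillomas (adjusted p = 0.0104) and by 2.25 ± 0.323 against skin (adjusted p = 0.000205). P3h2, a prolyl 3-hydroxylase, fell by 1.72 (SE 0.333, adjusted p = 0.00974) against papillomas and by 2.10 (SE 0.371, adjusted p = 0.000793) against skin. Pcolce2, an enhancer of procollagen cleavage, fell by 1.31 (SE 0.372, adjusted p = 0.0131) against skin. In papillomas against skin, 8 rose and 5 fell, near the shares of all genes (24.5% and 18.1%), among them Plod2 (rise 1.93 ± 0.238, adjusted p = 2.46e-05) and Pcolce2 (fell by 2.25, SE 0.26, adjusted p = 1.48e-05).

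Of 9 measured collagen receptors, 4 rose and 2 fell in spindle carcinomas against papillomas, where 12.6% of all genes rose and 11.2% fell. Ddr2, a receptor tyrosine kinase for fibrillar collagen, rose by 1.51 ± 0.478 (adjusted p = 0.0456), and Mrc2, which takes up collagen fragments, by 1.33 ± 0.37 (adjusted p = 0.0295). Itga11, the integrin chain by which fibroblasts grip type I collagen, fell by 1.73 (SE 0.3, adjusted p = 0.00833), and Ddr1, the epithelial relative of Ddr2, by 0.51 (SE 0.157, adjusted p = 0.0417). In papillomas against skin, 3 receptors rose and 1 fell, where 24.5% and 18.1% of all genes did. Those that rose included Lair1 (0.97 ± 0.194, adjusted p = 0.00113) and Itga2 (0.85 ± 0.154, adjusted p = 0.00049), while Ddr2 fell by 1.38 (SE 0.232, adjusted p = 0.000286).

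Metastases labelled SCC differed from the SCC carcinomas of the same 8 mice in 5 collagens, 2 higher and 3 lower, where 4.55% of all genes were called, 1.81% higher and 2.74% lower. Without the mouse block, only Col12a1 was called, where that fit called 4.48% of all genes. Col6a5 rose by 1.73 ± 0.367 (adjusted p = 0.0335, higher in 8 of 8 mice). Its levels over all 11 mice with such metastases were 5.42, 7.11 and 9.36, against 5.0, 5.62 and 6.72 in the carcinomas, and in lymph node metastases labelled SCC single arrays ran from 4.83 to 10.2. Col14a1 rose by 1.05 ± 0.241 (adjusted p = 0.0418, 8 of 8), with 6.89, 8.1 and 9.37 in metastases, against 6.07, 6.68 and 8.25 in carcinomas. Col12a1 fell by 1.18 (SE 0.216, adjusted p = 0.0199), lower in all 8 mice, with 8.23, 9.85 and 11.1 in metastases, against 9.72, 11.2 and 11.9 in carcinomas. Col23a1 fell by 0.62 (SE 0.138, adjusted p = 0.0397) and Col5a3 by 0.51 (SE 0.124, adjusted p = 0.0495). Only the Col12a1 call stood on leaving out each mouse in turn, whereas Col23a1 and Col5a3 lost theirs for 7 of 8 mice, Col14a1 for 6 and Col6a5 for 5. The metastasis of mouse 1949 was closest to spindle tumours despite its SCC label. Without this mouse, Col6a5 gave 1.52 (adjusted p = 0.0651), Col14a1 0.92 (adjusted p = 0.0777) and Col23a1 -0.66 (adjusted p = 0.0574). Col12a1 and Col5a3 kept their calls there.

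The median of the fibrillar genes was -0.39, against 0.01 over all genes, and 10 of the 11 had a negative difference, though only Col5a3 was called. Col1a1 averaged 11.1 ± 0.791 in metastases and 11.7 ± 0.533 in carcinomas (log2 difference -0.57 ± 0.249, adjusted p = 0.215) and was lower in metastasis in 7 of 8 mice. With lymph node metastases alone none of the 42 was called by limma, where 0.32% of all genes were. Of the marker lists, 2 of 7 macrophage markers rose (median 1.16) and 2 of 10 keratinocyte markers fell (median -0.94), 1 of 8 lung markers fell and none rose (median 1.34), and no lymph node stroma marker was called. Lung markers averaged 4.69 to 10 over mice with SCC metastases, against 4.73 to 5.36 over those with SCC carcinomas, and lymph node stroma markers 5.02 to 8.93, against 4.64 to 6.65. The part of these cell types in the collagen differences was not tested.

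**Figure D4:**
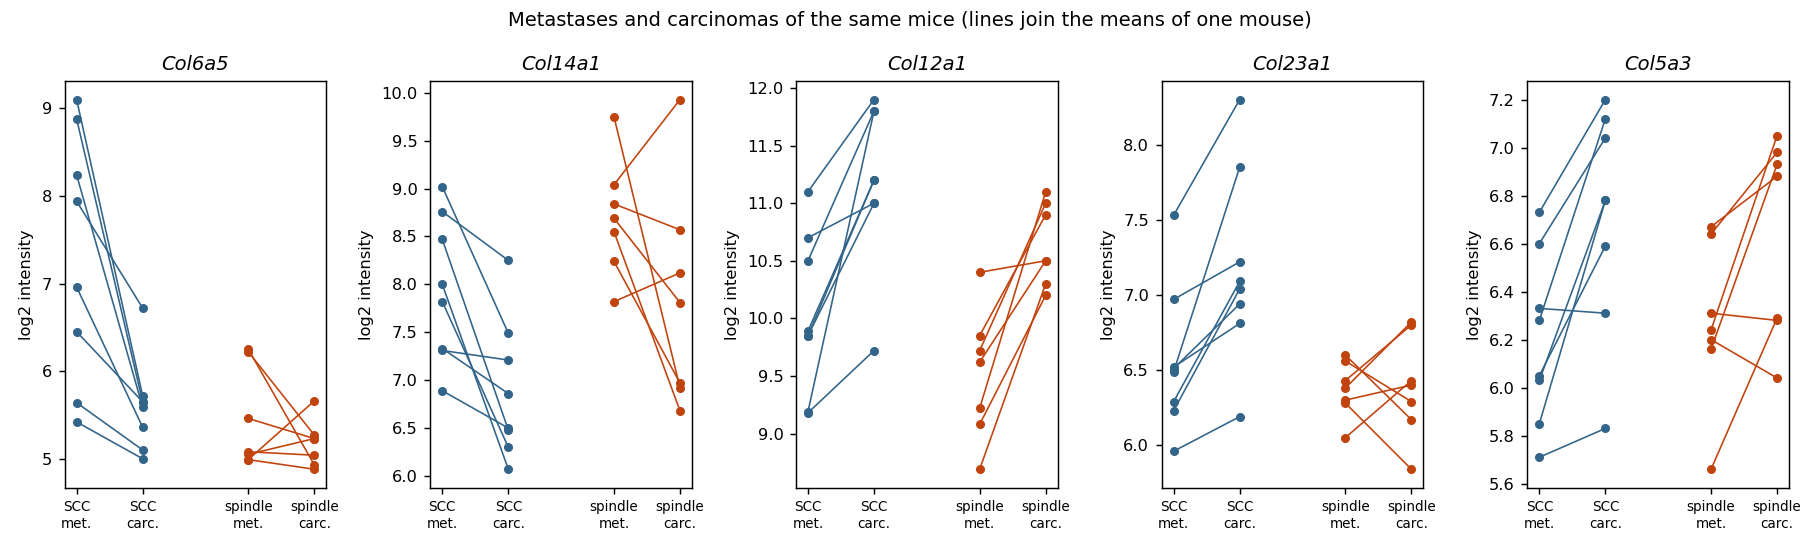
Log2 intensity (y axis) of the 5 collagens called between metastases labelled SCC and SCC carcinomas of the same mice (blue, 8 mice), beside spindle metastases and spindle carcinomas (orange, 7 mice). In blue, Col6a5 and Col14a1 are higher and Col12a1 and Col23a1 are lower in the metastasis of all 8 mice.

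In the metastases labelled SCC, Col17a1 separated into distinct levels. Of 24 arrays, 5 from 4 mice (3 lung and 2 lymph node metastases) lay between 4.99 and 6.18, and 19 from 9 mice lay between 8.70 and 10.7. The low arrays came from WT mouse 1949 and from mice 1616, 1664 and 1706, the only HrasKO mice with such metastases. HrasKO mice gave 6 of the 24 arrays and WT mice 18. Mice 1616 and 1706 also had an array in the upper set (10.5 and 8.70). Whether the split follows genotype was not tested. The 6 arrays closest to spindle tumours had Col17a1 from 4.99 to 8.70, and the other 18 from 9.02 to 10.7. In spindle metastases the mouse means ran from 5.08 over 5.22 to 6.62, with the spindle carcinomas of those mice at 6.6 ± 1.71 on average.

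Spindle metastases and spindle carcinomas of the same 7 mice had no called collagen, and no gene of 18772 was called by limma (0%), while 4 collagens and 2495 genes had an unadjusted p under 0.05. Col12a1 was again the one with the smallest p, at -1.12 (adjusted p = 0.22), and Col1a1 gave -0.41 ± 0.138 (adjusted p = 0.323), lower in all 7 mice. Spindle against SCC metastases (7 and 11 mice) gave none by limma either, where 0.0693% of all genes were called (0.0426% higher and 0.0266% lower), while 7 collagens had an unadjusted p under 0.05. Col17a1 had -2.72 ± 0.759 (adjusted p = 0.0898) in a fit that adjusts for genotype, so the value is not the plain difference of the means. Among lymph node metastases alone, 7 collagens were called (6 higher, 1 lower), where that fit called 11.8% of all genes, Col17a1 with -4.26 (adjusted p = 0.000185) and Col5a1 with 0.89 (adjusted p = 0.0162). Lung against lymph node metastases of 8 mice, in a fit with mouse and histology terms, gave no called gene of any kind by limma (0%). Even the 8 lung markers, with a median log2 difference of 5.51, were not called. The lack of calls therefore does not show that collagens are alike at the 2 sites. There 3 collagens and 1155 genes had an unadjusted p under 0.05. In mice 1949, 1984 and 1664 the lung metastasis was labelled SCC and the lymph node metastases spindle. Site and histology cannot be told apart in these mice, so the site difference rests on the others. Col3a1 gave -0.92 ± 0.428 (adjusted p = 0.864).

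No collagen was called by limma between HrasKO and WT mice, in fits that adjust for batch. In skin (6 and 9 mice), where 0.00533% of all genes were called, 2 of the 42 had an unadjusted p under 0.05: Col6a6 at 0.58 (adjusted p = 0.26) and Col20a1 at -0.31 (adjusted p = 0.416). In papillomas (4 and 9 mice, 0.00533% of all genes) the 2 were Col10a1 at 0.27 (adjusted p = 0.887) and Col18a1, which averaged 8.95 ± 0.226 in HrasKO and 9.35 ± 0.282 in WT papillomas (log2 difference -0.35 ± 0.144, adjusted p = 0.908). In spindle carcinomas (4 and 6 mice, 0% of all genes) only Col6a3 did, at 0.69 (adjusted p = 0.991), while Col4a1 (-0.90 ± 0.515) and Col4a2 (-0.94 ± 0.578) had the lowest values there, both with an adjusted p of 0.991. HrasKO mice had no carcinoma labelled SCC, so that comparison could not be made. Metastases were not compared by genotype.

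In papillomas, 5 chosen pairs of chains of a common molecule or fibril varied together over mice. Over the papillomas of 13 mice, 5 of 6 pairs passed after Benjamini-Hochberg adjustment over the 6 pairs (two-sided permutation test). Col1a1 and Col1a2, the chains of the type I heterotrimer, had r = 0.96 (adjusted p = 3e-05, rho = 0.86), and Col1a1 and Col3a1 had r = 0.93 (adjusted p = 4e-05, rho = 0.79). Col4a1 and Col4a2, whose windows share the bases marked above, had r = 0.92 (adjusted p = 4.5e-05, rho = 0.88). A link between these bases and the correlation was not tested. Col6a1 and Col6a2 had r = 0.92 (adjusted p = 0.000168, rho = 0.80) and Col5a1 and Col5a2 r = 0.90 (adjusted p = 3e-05, rho = 0.90). The smallest permutation p, 1e-05, is the smallest that these resamples can give. The cross-class pair, Col1a1 and Col4a1, had r = 0.37 (adjusted p = 0.209, rho = 0.29). It was the only pair of another kind, and no background of other gene pairs was computed. Whether a common molecule or fibril sets the 5 pairs apart was therefore not tested. After leaving out the 2 mice farthest from the median of the first gene, r was 0.82 to 0.90 for the 5 pairs and 0.26 for the cross-class pair. Without the papilloma arrays that stand apart (12 mice), r was 0.89 to 0.99 for the 5 pairs and 0.26 for Col1a1 and Col4a1, and within batch 1 alone (11 mice) 0.92 to 0.96 and 0.40.

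**Figure D5:**
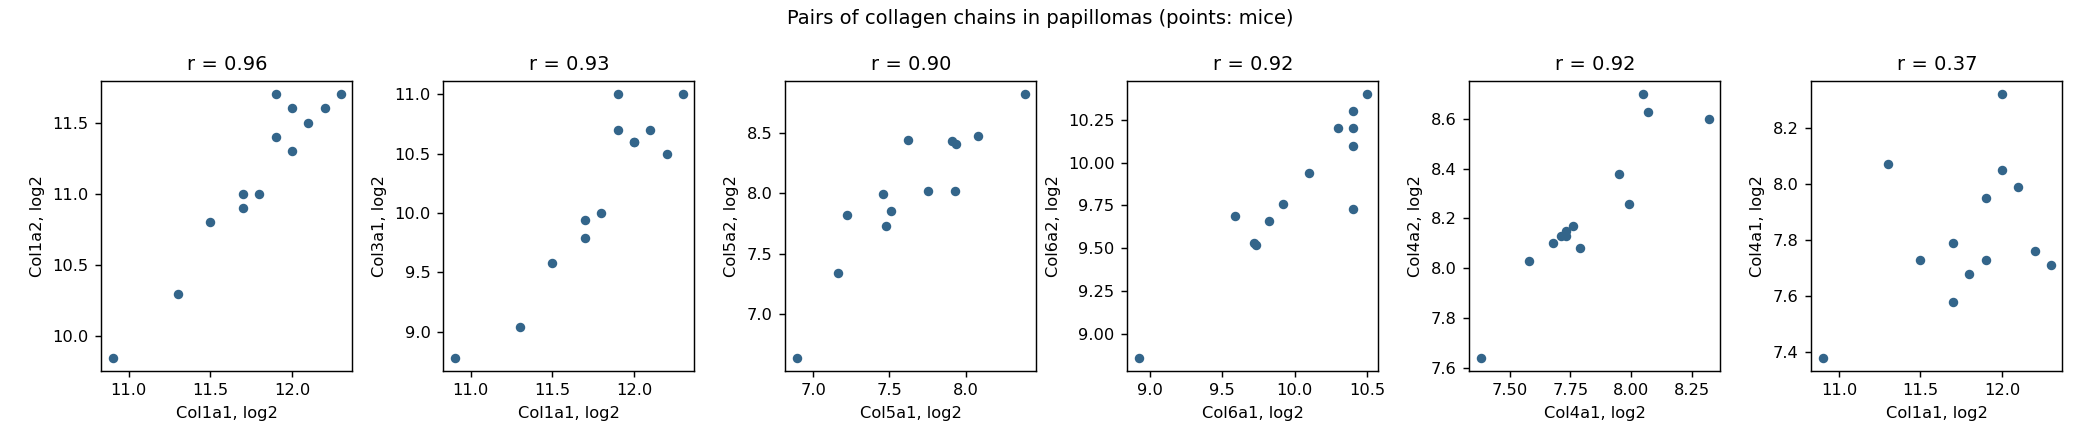
Log2 intensity of pairs of collagen chains in papillomas, with the first chain on the x axis and the second on the y axis, 1 point per mouse (13 mice). The 5 pairs from a common molecule or fibril line up (r from 0.90 to 0.96), and Col1a1 with Col4a1 scatters (r = 0.37).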

How the data were processed

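RNA of 112 skin and tumour samples was measured on Affymetrix arrays. The deposited values are log2 intensities made by the authors with RMA, per the submitters' processing notes (version not given). Of 28204 probe sets, 21141 carried 1 symbol and gave 18772 genes, each by its highest-mean set. Arrays were averaged per mouse and group. For the tests, R 4.3.3 and limma 3.58.1 were used on these means: a linear model per gene, moderated variances, two-sided p-values and Benjamini-Hochberg adjustment over all genes with a threshold of 0.05. The mouse was a fixed block where the same mice gave both groups, since same-numbered samples came from 1 animal, and a random block for spindle against SCC tumours. The number of mice limits the precision. The scripts were tested on simulated data. Correlations used 100000 permutations. Named were, per comparison, the 5 largest rises and 5 largest falls among called collagens, fixed anchor genes, and up to 2 rises and 2 falls of each collagen enzyme and receptor list. Other genes named were chosen after their values were seen. The members and lists were chosen with earlier results of these data known. Sequence differences between Mus spretus and FVB at the probes were not tested.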

Additional observations from a re-analysis of the deposited data

Results flagged for a closer look

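Each of 20 named collagens was checked in SCC carcinomas, spindle carcinomas and spindle metastases (7 to 10 mice per group). Of these 60 checks, 10 held a mouse far from the others of its group. Chance gives about 1 in 20 for independent checks. These share mice, and some collagens vary together, so the count cannot be set against that rate. In SCC carcinomas mouse 1984 was lowest for Col12a1 (9.72, next 11) and for Col6a1 (7.54, next 9.51), and mouse 1717 was highest for Col6a5 (6.72, next 5.72). In spindle carcinomas mouse 1949 was highest for Col17a1 (10.1, next 7.23), in the array closest to papillomas. There mouse 2022 was lowest for Col1a1 (10.3, next 11.3) and for Col5a1 (6.89, next 7.86), mouse 1407 was lowest for Col1a2 (9.51, next 11), and mouse 1984 was highest for Col4a5 (6.47, next 5.69). In spindle metastases mouse 1537 was highest for Col17a1 (6.62, next 5.33), and mouse 1509 was lowest for Col18a1 (6.37, next 8.67).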

How the results depend on the processing

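The 44 calls of named collagens were recomputed 679 times under the alternatives: none changed direction and 132 lost the call. In every alternative that held the gene, 25 of the 44 kept it. The filter on low values left out Col4a6, which exceeded the median intensity in 4 of the 112 arrays, so its falls were not tested there. Percentages in brackets below are the shares of all genes called in the same fit. Without the papilloma arrays that stand apart, 1 collagen was called between SCC carcinomas and papillomas (2.01%), against 0 (0.202%). Between spindle carcinomas and papillomas 13 were called (36.8%), against 6 (23.8%). For spindle carcinomas against papillomas, batch 1 alone gave 3 calls (12.1%), and leaving out the carcinomas titled RegCA gave 0 (0%). Leaving out a mouse gave 3 to 10: 3 without each of mice 1383, 1508, 1509, 1664, 1984 and 2022, and 10 without mouse 1815. For spindle against SCC carcinomas in WT mice, with 2 calls (7.56%), batch 1 alone gave 1 (3.5%). Leaving out the spindle array closest to papillomas gave 6 (19.6%), and leaving out RegCA with no mouse term gave 1 (5.28%). Both were chosen after seeing the data, the latter since the planned fit without RegCA could not be fitted. Leaving out a mouse gave 0 to 5, with 0 without 1383, 1508 or 1984 and 5 without 1949. For SCC metastases against SCC carcinomas, with 5 calls (4.55%), the fit with no replicate block gave 1 (4.48%) and the trended robust fit 3 (4.62%). Repeated quantile normalization gave 3 (2 higher, 1 lower; 6.8%), batch 1 alone 1 (1.08%) and lymph node metastases alone 0 (0.32%). Leaving out a mouse gave 1 to 4. For spindle against SCC metastases, with 0 calls (0.0693%), lymph node metastases alone gave 7 (11.8%), and leaving out a mouse 0 to 1. Leaving out a mouse gave 16 to 19 calls for papillomas, 8 to 13 for SCC carcinomas and 12 to 17 for spindle carcinomas against skin. With no replicate block these 3 had 20, 12 and 15 calls (43.1%, 31.9% and 46.5%), against 18, 11 and 15 in the main fits (42.6%, 30.6% and 46.7%). Repeated quantile normalization gave 21, 12 and 22 (44.2%, 31.9% and 50.6%), with 21 higher and 1 lower for spindle carcinomas. The filter on low values, which kept 28 collagens, gave 12, 9 and 14 (54.9%, 42.4% and 61.7%). The cause was not tested for any of these changes.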
